A study of Mus musculus with 9 samples.

Results

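The SMAD proteins that carry signals of the TGF-beta and BMP families into the nucleus, and some of the proteins that restrain them, were followed through carbon tetrachloride injury in mouse liver. The set held 10 genes, taken by name from the 34745 genes of the expression table: Smad1, Smad2, Smad3, Smad4, Smad5, Smad6, Smad9, Ski, Smurf1 and Smurf2. Each name had 1 row, and all 10 passed the filter on low counts. Messenger RNA was sequenced from 9 liver samples of 12-week-old C57BL/6 mice in 3 groups of 3. The sample labels name hepatocytes. KO-CCL4 is labelled genotype KO and treatment CCL4, WT-CCL4 is labelled WT and CCL4, and WT-NC is labelled WT and NC. In the series' own terms KO stands for Tgfbr2HKO mice and WT for Tgfbr2f/f mice, so the WT animals carry a floxed gene for the type 2 TGF-beta receptor. Carbon tetrachloride (CCl4), a solvent that becomes a toxic radical in hepatocytes, was injected into the peritoneum in olive oil, 0.25 ml per kg body weight, over 4 weeks with 2 injections each week. The sources used here do not give the driver of the deletion, what NC means, or whether NC mice received oil. KO mice that had no CCl4 are not among the samples, and genotype and response to CCl4 could not be tested as an interaction.

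As background, ligand-bound receptors phosphorylate the receptor-regulated SMADs: Smad2 and Smad3 downstream of TGF-beta and activin, Smad1, Smad5 and Smad9 (also called Smad8) downstream of BMP. These join the common partner Smad4 and enter the nucleus to regulate transcription. Smad6 is an inhibitory SMAD that acts mainly on the BMP arm, Ski is a nuclear co-repressor that binds Smad2, Smad3 and Smad4, and Smurf1 and Smurf2 are ubiquitin ligases that mark SMADs and receptors for degradation. In liver the TGF-beta arm is known for driving scar formation by stellate cells, and the BMP arm for setting hepcidin output in hepatocytes. Messenger RNA of a SMAD says nothing about its phosphorylation, and no measure of protein was among the files.

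Each liver sample gave 1 library, numbered as in its label, with 16447353 to 20373585 counts. Levels are given as CPM, a gene's share of the library's counts after TMM scaling, which lines up the bulk of genes between libraries. Tgfbr2, the targeted gene, stood at 23.5, 69.9 and 28.3 CPM in KO-CCL4 livers 72, 75 and 79, at 127, 90.5 and 75.2 CPM in WT-CCL4 livers 11, 12 and 13, and at 31.5, 30.2 and 38.6 CPM in WT-NC livers 1, 2 and 3. Replicate 75 therefore lay near the WT-CCL4 range for the gene that its label says is targeted, and the fitted values of named genes in KO comparisons are given with and without it. Although the labels name hepatocytes, markers of other liver cells were present in every library. The summed level of 8 stellate cell and myofibroblast markers was 217, 1273 and 402 CPM in KO-CCL4 livers 72, 75 and 79, 1242 to 1956 CPM in WT-CCL4 and 94.4 to 239 CPM in WT-NC. That of 8 macrophage markers was 409, 2087 and 725 CPM in the same KO-CCL4 libraries, 1143 to 2896 CPM in WT-CCL4 and 224 to 289 CPM in WT-NC. Mitochondrial genes took 19.3% to 21.0% of the counts in KO-CCL4, 25.4% to 26.3% in WT-CCL4 and 9.13% to 12.0% in WT-NC.

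Each gene was compared between KO-CCL4 and WT-CCL4, between WT-CCL4 and WT-NC, and between KO-CCL4 and WT-NC. Tests came from a quasi-likelihood fit in edgeR, adjusted by Benjamini-Hochberg over 14134 genes, and a gene was called at an adjusted p under 0.05. Between KO-CCL4 and WT-CCL4, 1 of the 10 genes was called, Smad9, which was higher, against 5.07% of all genes called in either direction (3.46% higher and 1.61% lower). Between WT-CCL4 and WT-NC, 4 of the 10 were called against a background of 54.4%: Ski and Smad6 rose (29.5% of all genes rose) and Smad9 and Smurf2 fell (25.0% fell). Between KO-CCL4 and WT-NC, 1 of the 10 was called, Ski, which was higher, against a background of 23.0% (14.0% higher and 8.98% lower). Without KO-CCL4 replicate 75 the first comparison called Smad9 and Smurf2, both higher, at a background of 37.7% (2495 higher and 2958 lower of 14469 genes). The last comparison then called 0 of the 10 at a background of 17.3%. At these sizes the shares of the set called lay near or below the shares of all genes in the injury comparison, and rested on 1 gene in the others. The comparisons share groups, so a gene that moved in more than 1 of them was not measured independently each time.

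**Figure D1:**
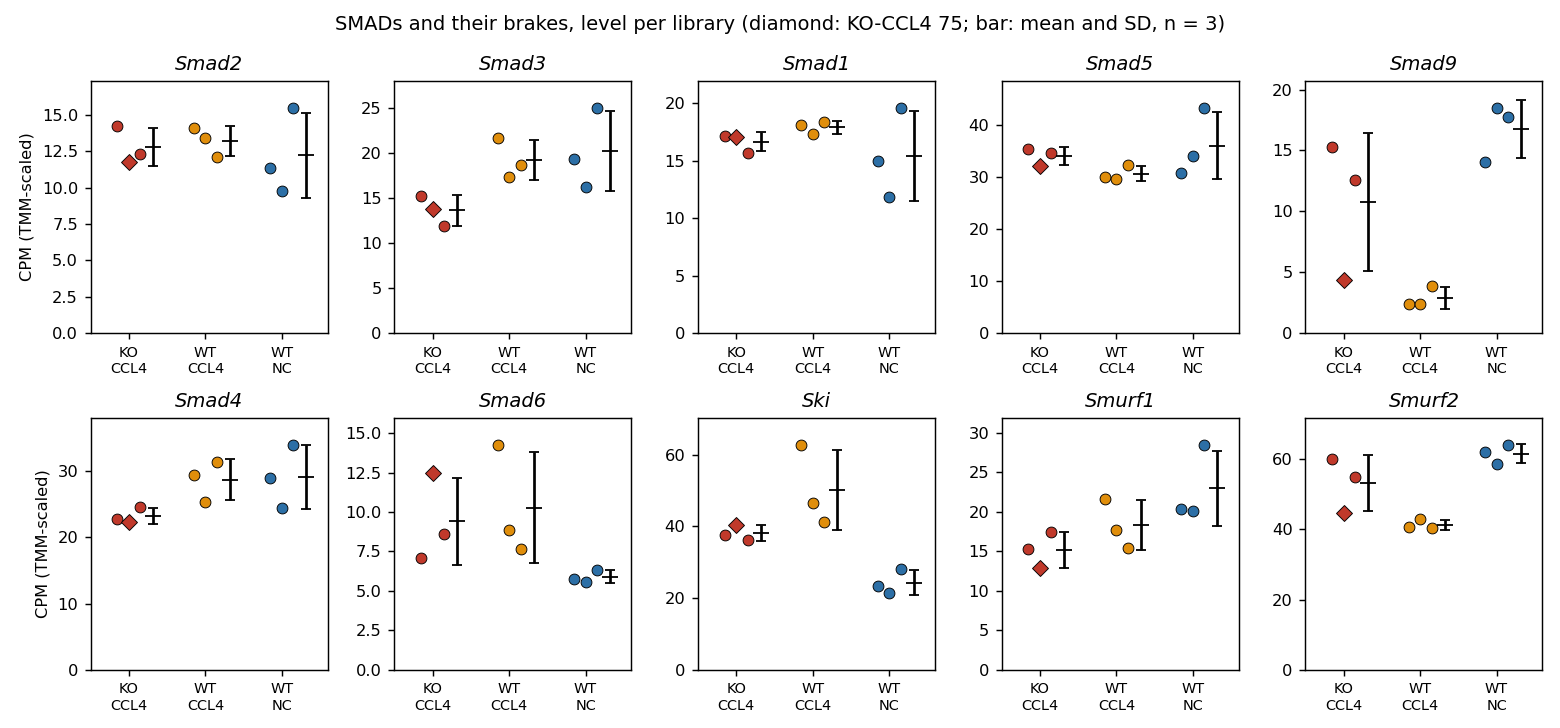
Level of each of the 10 genes per library in TMM-scaled CPM (vertical axes from 0), with KO-CCL4 left, WT-CCL4 in the middle and WT-NC right; bars give the mean and SD over 3 libraries, and the diamond is KO-CCL4 replicate 75. Smad9 is low in all 3 WT-CCL4 libraries (2.37 to 3.90 CPM), and replicate 75 at 4.38 CPM is nearer to them than to the other KO-CCL4 libraries.

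Smad9 of the BMP arm showed the widest movement of the 10 genes. It stood at 15.3, 4.38 and 12.5 CPM in KO-CCL4 livers 72, 75 and 79, at 2.38, 2.37 and 3.90 CPM in WT-CCL4 livers 11, 12 and 13, and at 14.1, 18.5 and 17.7 CPM in WT-NC livers 1, 2 and 3. All WT-CCL4 libraries were below every library of the other groups, by a narrow margin for KO-CCL4 replicate 75, while KO-CCL4 replicate 72 reached into the WT-NC range. Behind these values lay 93 to 256 counts in KO-CCL4, 47 to 74 in WT-CCL4 and 212 to 332 in WT-NC. The log2 fold change of WT-CCL4 over WT-NC was -2.54 ± 0.43 (SE, adjusted p = 0.00184), and it passed in each of the 9 fits that left out 1 library. The log2 fold change of KO-CCL4 over WT-CCL4 was 1.89 ± 0.43 (adjusted p = 0.0467), a 3.71-fold higher level.

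The size of that difference rested less on single libraries than its call did. Without KO-CCL4 replicate 75 it was 2.27 ± 0.26 (adjusted p = 0.000726), and over the 9 fits without 1 library it ranged from 1.55 to 2.27 on the log2 scale. The call was kept in 2 of those 9 fits (without KO-CCL4 replicate 75 and without WT-CCL4 replicate 13) and lost in the other 7, where the adjusted p lay between 0.0774 and 0.185. DESeq2 also called it (adjusted p = 0.000817), whereas a fit of only the 6 libraries compared did not (1.91, adjusted p = 0.131). Limma on the authors' FPKM did not call it either. It gave 0.76 on log2(FPKM + 1), where changes of low genes are understated, and 1.34 on log2(FPKM + 0.1) (adjusted p = 0.0588 and 0.0581). Between KO-CCL4 and WT-NC, Smad9 differed by -0.65 ± 0.41 on the log2 scale (adjusted p = 0.267), and by -0.27 without replicate 75 (adjusted p = 0.500).

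Hepatocyte markers in sum, like Smad9, were lower in every WT-CCL4 library than in any library of the other groups. The summed level of 7 of them was 101417, 81803 and 87398 CPM in KO-CCL4 livers 72, 75 and 79, 42234 to 70365 CPM in WT-CCL4 and 96194 to 112962 CPM in WT-NC, with none at 0. In KO-CCL4 replicate 75 this sum was near that of replicate 79, whereas Smad9 was nearer to its WT-CCL4 level. Of these 7, 6 fell with CCl4 in WT, where 25.0% of all genes fell. In KO-CCL4 over WT-CCL4, 2 of the 7 were called higher, beside 3.46% of all genes. Without replicate 75, 4 of the 7 were called higher, where 2495 of 14469 genes were higher and 37.7% were called in either direction. In RNA from mixed cells, fewer cells of a type and less RNA per cell cannot be told apart. The part of cell make-up in the Smad9 difference was not tested. The 2 genes whose profile over the 9 libraries was most like that of Smad9 were Dpyd (dihydropyrimidine dehydrogenase, which breaks down pyrimidines) and Slc27a5 (the bile acid CoA ligase of hepatocytes). Their log2 CPM, each centred on its own mean, differed from that of Smad9 by a root mean square of 0.15 and 0.17 over 9 libraries, against 1.16 for the spread of Smad9 itself. The nearest of the other 9 genes of the set was Smurf2 at 0.92.

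Smad1 and Smad5, the other BMP-regulated SMADs, stayed within narrow bounds. Smad1 stood at 17.2, 17.1 and 15.7 CPM in KO-CCL4 livers 72, 75 and 79, at 18.1, 17.3 and 18.4 CPM in WT-CCL4 livers 11, 12 and 13, and at 14.95, 11.8 and 19.6 CPM in WT-NC livers 1, 2 and 3. The WT-NC libraries spanned the range of both CCl4 groups. Its log2 fold change was -0.11 ± 0.19 for KO-CCL4 over WT-CCL4 (adjusted p = 0.718, and a value of -0.12 without replicate 75) and 0.21 ± 0.19 for WT-CCL4 over WT-NC (adjusted p = 0.367). Smad5 stood at 35.4, 32.1 and 34.6 CPM in KO-CCL4 livers 72, 75 and 79, at 30.0, 29.7 and 32.3 CPM in WT-CCL4 livers 11, 12 and 13, and at 30.8, 34.1 and 43.4 CPM in WT-NC livers 1, 2 and 3. The groups overlapped in each comparison, and neither fold change was called (0.15 ± 0.15 on the log2 scale for KO-CCL4 over WT-CCL4 with adjusted p = 0.507, or 0.19 without replicate 75, and -0.24 ± 0.15 for WT-CCL4 over WT-NC with adjusted p = 0.217). Both values of Smad5 changed sign on FPKM (-0.090 and 0.081 on the log2(FPKM + 1) scale). Within the BMP arm, then, Smad9 was the gene whose CCl4 change passed the test, and the difference between its change and those of Smad1 and Smad5 was not tested.

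Of the TGF-beta arm and its partner, Smad2, Smad3 and Smad4, no gene was called in any comparison. Smad3 stood at 15.2, 13.8 and 11.8 CPM in KO-CCL4 livers 72, 75 and 79, at 21.7, 17.3 and 18.6 CPM in WT-CCL4 livers 11, 12 and 13, and at 19.3, 16.2 and 25.0 CPM in WT-NC livers 1, 2 and 3. All 3 KO-CCL4 libraries were below every library of both WT groups. The log2 fold change was -0.50 ± 0.20 for KO-CCL4 over WT-CCL4 (adjusted p = 0.128, and 0.107 without replicate 75) and -0.57 ± 0.20 for KO-CCL4 over WT-NC (adjusted p = 0.0661, and 0.113 without replicate 75). Neither passed, although the values without each library in turn stayed between -0.58 and -0.40 for the first and between -0.70 and -0.40 for the second. CCl4 in WT mice left Smad3 at a log2 fold change of -0.07 ± 0.20 (adjusted p = 0.777), which became 0.22 on the log2(FPKM + 1) scale.

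Smad4, the partner shared by both arms, stood at 22.8, 22.3 and 24.6 CPM in KO-CCL4 livers 72, 75 and 79, at 29.4, 25.3 and 31.4 CPM in WT-CCL4 livers 11, 12 and 13, and at 29.0, 24.4 and 34.0 CPM in WT-NC livers 1, 2 and 3. The KO-CCL4 libraries lay below all WT-CCL4 libraries by a narrow margin and overlapped WT-NC. Its log2 fold change of KO-CCL4 over WT-CCL4 was -0.30 ± 0.16 (adjusted p = 0.225), and -0.27 without replicate 75 (adjusted p = 0.265). Smad2 stood at 14.2, 11.8 and 12.3 CPM in KO-CCL4 livers 72, 75 and 79, at 14.1, 13.4 and 12.1 CPM in WT-CCL4 livers 11, 12 and 13, and at 11.4, 9.79 and 15.5 CPM in WT-NC livers 1, 2 and 3. These groups overlapped throughout, and the log2 fold change of KO-CCL4 over WT-CCL4 was -0.047 ± 0.20 (adjusted p = 0.881), and 0.011 without replicate 75. In WT, CCl4 over NC gave 0.11 ± 0.20 for Smad2 (adjusted p = 0.653) and -0.02 ± 0.16 for Smad4 (adjusted p = 0.916). Over the 9 libraries the profiles of Smad1 and Smad2 lay closest to each other of all pairs in the set (root mean square 0.11), and those of Smad3 and Smad4 differed by 0.18.

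**Figure D2:**
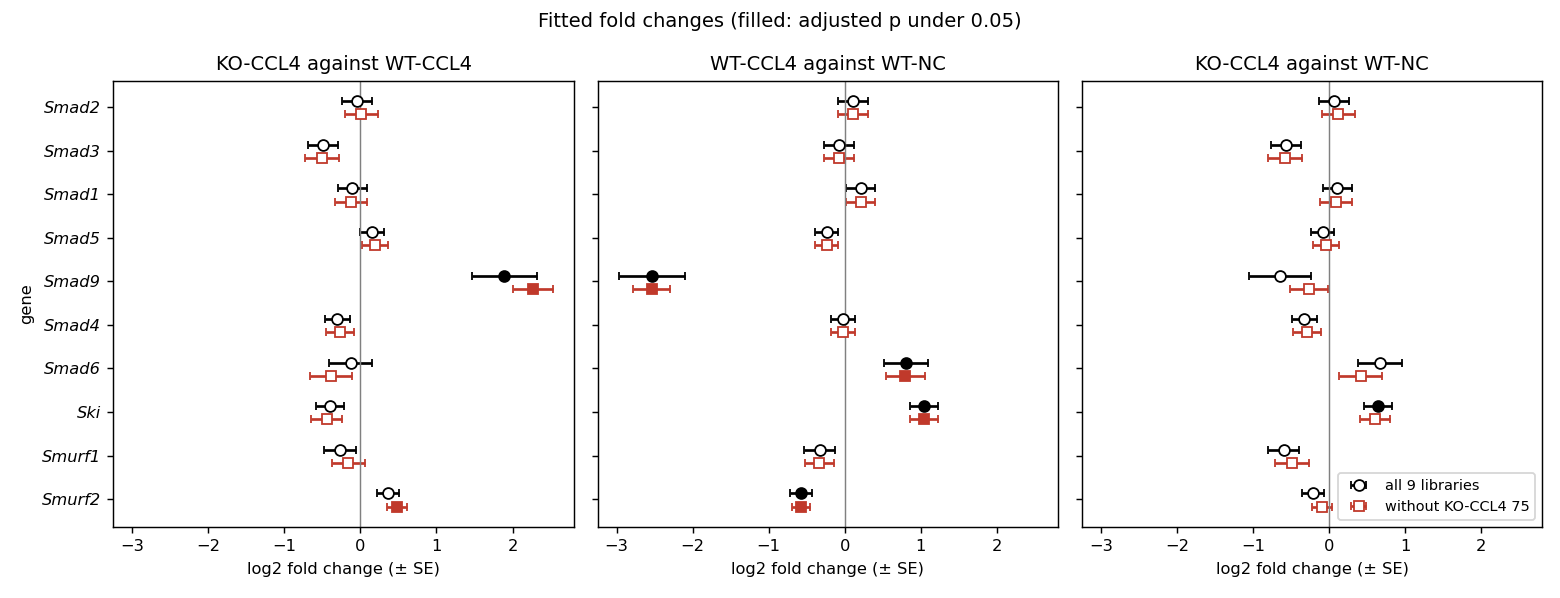
Fitted log2 fold change ± SE of each gene (horizontal axis) in the 3 comparisons, with all 9 libraries (black) and without KO-CCL4 replicate 75 (red); filled symbols have an adjusted p under 0.05. Smad9 lies farthest from 0 in the first and second panels, at 1.89 and -2.54 with all libraries, and Smurf2 is filled in the first panel only without replicate 75.

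Among the brakes, the co-repressor Ski rose with CCl4. It stood at 37.6, 40.5 and 36.2 CPM in KO-CCL4 livers 72, 75 and 79, at 62.7, 46.6 and 41.3 CPM in WT-CCL4 livers 11, 12 and 13, and at 23.4, 21.4 and 28.2 CPM in WT-NC livers 1, 2 and 3. No library of 1 group fell into the range of another, with KO-CCL4 between WT-CCL4 and WT-NC. The log2 fold change of WT-CCL4 over WT-NC was 1.05 ± 0.19 (adjusted p = 0.00209), which passed in all 9 fits without 1 library. KO-CCL4 over WT-NC gave 0.65 ± 0.19 (adjusted p = 0.0359), a call that 2 of the 9 fits kept and that was lost without KO-CCL4 replicate 75 (0.60, adjusted p = 0.0723). It was also lost without KO-CCL4 replicate 72 or 79, without WT-CCL4 replicate 12 and without any of the 3 WT-NC libraries (0.56 to 0.75). KO-CCL4 over WT-CCL4 gave -0.40 ± 0.18 (adjusted p = 0.169), and -0.44 without replicate 75 (adjusted p = 0.118).

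Smad6, the inhibitory SMAD of the BMP arm, stood at 7.09, 12.5 and 8.63 CPM in KO-CCL4 livers 72, 75 and 79, at 14.3, 8.89 and 7.69 CPM in WT-CCL4 livers 11, 12 and 13, and at 5.78, 5.58 and 6.35 CPM in WT-NC livers 1, 2 and 3. All 6 CCl4 libraries were above all WT-NC libraries, and the CCl4 groups overlapped each other. It rose in WT-CCL4 over WT-NC by 0.80 ± 0.29 on the log2 scale (adjusted p = 0.0415). That call was kept in 3 of the 9 fits without 1 library. It was lost without WT-CCL4 replicate 11 (0.49, adjusted p = 0.162) or 12 (0.90), without any of the 3 WT-NC libraries (0.76 to 0.82) and without KO-CCL4 replicate 79 (0.80). In KO-CCL4 it differed from WT-NC by 0.67 ± 0.29 (adjusted p = 0.118, and 0.337 without replicate 75) and from WT-CCL4 by -0.13 ± 0.28 (adjusted p = 0.777). Without replicate 75 these values were 0.41 and -0.38 (adjusted p = 0.304 for the second).

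Endothelial cells are a known site of Smad6 transcription. Like the mean of Smad6, their markers were highest in WT-CCL4 and lowest in WT-NC, but with no overlap between the CCl4 groups. The summed level of 8 of them was 501, 692 and 519 CPM in KO-CCL4 livers 72, 75 and 79, 740 to 855 CPM in WT-CCL4 and 260 to 335 CPM in WT-NC. Of the 8, 7 rose with CCl4 in WT, beside 29.5% of all genes. Between KO-CCL4 and WT-CCL4 edgeR called 0 of the 8, beside 5.07% of all genes. Without replicate 75 it called 6 lower, where 2958 of 14469 genes were lower and 37.7% were called in either direction. None of the 8 was at 0 in every library of a group. In both CCl4 groups the library with the highest Smad6 (KO-CCL4 replicate 75 and WT-CCL4 replicate 11) was also the one with the highest summed endothelial level. The same libraries were highest in their groups for the macrophage, stellate cell, bile duct, lymphocyte, neutrophil, exocrine pancreas and mesothelium lists, so the match was not particular to endothelial markers. Exocrine pancreas markers summed to 1035, 325 and 9.32 CPM in WT-CCL4 livers 11, 12 and 13. They summed to 22.2, 149 and 43.2 CPM in KO-CCL4 livers 72, 75 and 79, and to 0 to 2.72 CPM in WT-NC. Mesothelium markers summed to 35.7 to 150 CPM in WT-CCL4, 3.58 to 25.8 CPM in KO-CCL4 and 0 to 0.199 CPM in WT-NC. The source of these transcripts was not tested. The part of any of these cells in the Smad6 values was not tested.

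The ubiquitin ligase Smurf2 fell with CCl4 in WT. It stood at 60.1, 44.5 and 55.0 CPM in KO-CCL4 livers 72, 75 and 79, at 40.7, 43.0 and 40.3 CPM in WT-CCL4 livers 11, 12 and 13, and at 62.1, 58.5 and 64.1 CPM in WT-NC livers 1, 2 and 3. Every WT-CCL4 library was below every library of the other groups, as for Smad9, and replicate 75 was again the KO-CCL4 library closest to WT-CCL4. WT-CCL4 over WT-NC gave -0.58 ± 0.14 (adjusted p = 0.00833), which passed in all 9 fits without 1 library. With limma on log2(FPKM + 1) the value was -0.20 and did not pass (adjusted p = 0.156); the median over the 10987 genes of that fit was 0.21, against 0.04 over the 14134 genes of the count fit. KO-CCL4 over WT-CCL4 gave 0.37 ± 0.14 with all libraries (adjusted p = 0.121) and 0.48 ± 0.13 without replicate 75 (adjusted p = 0.0171).

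Smurf1, its close relative, stood at 15.3, 12.9 and 17.4 CPM in KO-CCL4 livers 72, 75 and 79, at 21.7, 17.7 and 15.4 CPM in WT-CCL4 livers 11, 12 and 13, and at 20.3, 20.1 and 28.5 CPM in WT-NC livers 1, 2 and 3. The KO-CCL4 libraries were below all WT-NC libraries, while WT-CCL4 overlapped both. No comparison called it in edgeR: the log2 fold change was -0.27 ± 0.21 for KO-CCL4 over WT-CCL4 (adjusted p = 0.388, and -0.16 without replicate 75), -0.33 ± 0.21 for WT-CCL4 over WT-NC (adjusted p = 0.202) and -0.60 ± 0.21 for KO-CCL4 over WT-NC (adjusted p = 0.0657). DESeq2 called the last of these at the margin (-0.59, adjusted p = 0.0499), whereas edgeR without replicate 75 gave -0.49 (adjusted p = 0.159).

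The sequence before the start site is shown for the 3 genes called in more than 1 comparison or carrying a full SMAD palindrome. Windows of 300 bases (250 before the start site, 50 from it on) were taken from RefSeq, build GRCm38.p6, in which 8 of the 10 genes had an entry; Smad2 and Smad4 had none. Capitals mark, on either strand, the palindromic SMAD-binding element GTCTAGAC, the shorter CAGAC (other strand GTCTG) and the GC-rich elements GGCGCC and GGAGCC (other strand GGCTCC) of the kind bound by BMP-regulated SMADs. None of these matches overlapped another in the windows shown. Smad9 lies at chr3:54755332-54755631 (plus strand), Ski at chr4:155222486-155222785 (minus strand) and Smad6 at chr9:64022010-64022309 (minus strand).
Smad9: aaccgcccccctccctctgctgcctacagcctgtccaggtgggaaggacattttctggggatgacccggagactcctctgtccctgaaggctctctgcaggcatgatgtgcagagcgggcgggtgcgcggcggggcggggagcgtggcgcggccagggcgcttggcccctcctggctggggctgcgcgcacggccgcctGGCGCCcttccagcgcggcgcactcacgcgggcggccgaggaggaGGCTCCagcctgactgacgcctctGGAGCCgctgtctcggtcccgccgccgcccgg
Ski: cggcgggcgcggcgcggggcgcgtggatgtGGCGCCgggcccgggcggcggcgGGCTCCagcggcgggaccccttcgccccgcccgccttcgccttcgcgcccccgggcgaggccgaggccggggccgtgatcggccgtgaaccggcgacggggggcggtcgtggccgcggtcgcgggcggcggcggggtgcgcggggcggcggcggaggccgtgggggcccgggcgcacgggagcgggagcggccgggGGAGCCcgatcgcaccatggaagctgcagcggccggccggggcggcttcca
Smad6: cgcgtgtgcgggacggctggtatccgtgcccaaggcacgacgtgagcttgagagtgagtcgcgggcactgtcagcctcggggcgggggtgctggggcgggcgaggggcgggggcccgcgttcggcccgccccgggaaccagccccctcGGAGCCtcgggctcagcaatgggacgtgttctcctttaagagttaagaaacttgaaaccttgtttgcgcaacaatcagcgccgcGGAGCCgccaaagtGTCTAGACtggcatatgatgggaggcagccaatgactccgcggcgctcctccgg

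GTCTAGAC occurred in 0.213% of the 32851 windows of the table and, among the 8 genes, in Smad6, where it begins at position -4 from the start site. GGCGCC, found in 11.9% of all windows, occurred 1 time each in the Smad9 and Ski windows shown, at positions -51 and -220 from the start site. It was also present in windows of Smad5 and Smurf2. GGAGCC was found in 30.8% of all windows and occurred 2 times in each of the windows of Smad9, Ski, Smad6, Smurf1 and Smurf2. CAGAC, found in 49.6%, was in none of the 3 windows shown, and the windows of Smad1 and Smad3 held none of the 4 elements. The windows are rich in G and C (73.7% for Smad9, 85.3% for Ski and 66.3% for Smad6, against a median of 52.7% over all windows), which favours the GC-rich elements. A match is a description of letters, and binding was not measured.

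Levels between genes can be compared only per length, for which the authors' FPKM (fragments scaled by transcript length and library size) were used. In KO-CCL4 the order ran from Smurf2 (6.27 ± 0.12 FPKM, SD, n = 3) and Ski (5.74 ± 1.297) through Smad4 (3.89 ± 0.56), Smad6 (2.64 ± 1.24), Smad1 (2.63 ± 0.50), Smad2 (2.31 ± 0.24), Smad5 (2.31 ± 0.27), Smad3 (2.28 ± 0.46) and Smad9 (1.80 ± 0.77) to Smurf1 (1.37 ± 0.13). In WT-CCL4 Ski led (9.09 ± 2.17), before Smurf2 (5.95 ± 0.26), Smad4 (5.79 ± 0.58), Smad3 (3.87 ± 0.50), Smad1 (3.40 ± 0.10), Smad6 (3.38 ± 1.21), Smad2 (2.91 ± 0.27), Smad5 (2.51 ± 0.08) and Smurf1 (2.01 ± 0.38), with Smad9 last (0.62 ± 0.18). In WT-NC Smurf2 led (7.02 ± 0.67), before Smad4 (4.67 ± 0.99), Ski (3.48 ± 0.67), Smad3 (3.23 ± 0.87), Smad9 (2.84 ± 0.39), Smad5 (2.35 ± 0.52), Smad1 (2.34 ± 0.70), Smad2 (2.14 ± 0.62) and Smurf1 (2.002 ± 0.51), with Smad6 last (1.53 ± 0.18). Smad9 thus took the ninth place in KO-CCL4, the last in WT-CCL4 and the fifth in WT-NC. The FPKM ranges of neighbours in these orders mostly overlapped. Of the 9 steps in each group, the ranges were apart only between Ski and Smad4 in KO-CCL4 and between Smurf2 and Smad4 in WT-NC. In WT-CCL4 the ranges were apart at 6 steps, the exceptions being Smurf2 and Smad4, Smad1 and Smad6, and Smad6 and Smad2. Ranges that overlap can hide an order kept within libraries. For example, Smad4 was above Ski in every WT-NC library and above Smad6 in every KO-CCL4 library. Smad5 had the most CPM of the SMADs but a middling FPKM, since the length behind its FPKM was 14068 bases, against 3526 (Smad6) to 6071 (Smad1) for the others.

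The 7 SMADs together summed to 16.4, 20.6 and 16.6 FPKM in KO-CCL4 livers 72, 75 and 79, to 24.9, 20.7 and 21.8 FPKM in WT-CCL4 livers 11, 12 and 13, and to 17.9, 15.9 and 23.5 FPKM in WT-NC livers 1, 2 and 3. Their make-up is given as shares of that sum, which do not depend on library scaling. The BMP-regulated SMADs made up 41.8%, 32.8% and 39.8% in KO-CCL4 livers 72, 75 and 79, 26.2%, 30.1% and 31.4% in WT-CCL4 livers 11, 12 and 13, and 37.3%, 42.5% and 39.0% in WT-NC livers 1, 2 and 3. Within that arm Smad9 took 34.7%, 13.8% and 31.6% in KO-CCL4, 7.98%, 8.18% and 12.0% in WT-CCL4 and 36.0%, 44.1% and 34.3% in WT-NC. The TGF-beta-regulated pair made up 25.7% ± 1.84 in KO-CCL4, 30.1% ± 1.16 in WT-CCL4 and 27.8% ± 2.07 in WT-NC (SD, n = 3 each). Within that pair Smad3 took 46.8% to 51.8% in KO-CCL4, 54.2% to 58.5% in WT-CCL4 and 59.6% to 60.8% in WT-NC, with no overlap between groups. Smad6 held 10.3%, 19.7% and 13.2% in KO-CCL4, 19.1%, 14.1% and 11.3% in WT-CCL4 and 8.40%, 8.63% and 7.30% in WT-NC. These shares are descriptions and were not tested.

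**Figure D3:**
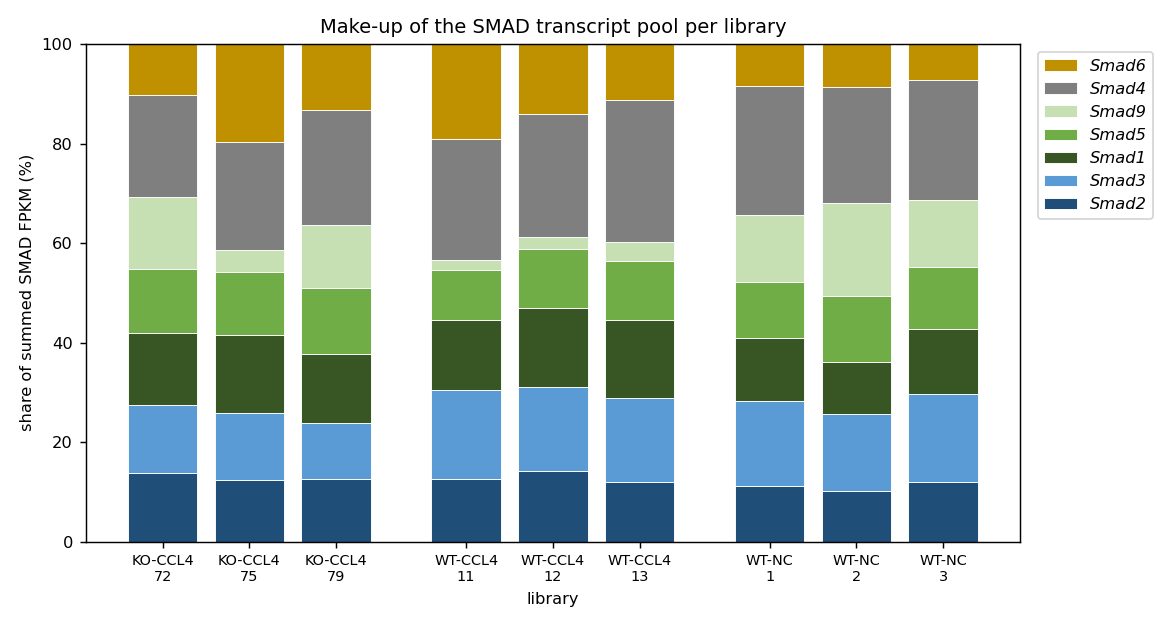
Share of each SMAD in the summed FPKM of the 7 SMADs (vertical axis, percent), 1 bar per library, KO-CCL4 left, WT-CCL4 in the middle and WT-NC right; blue is the TGF-beta arm, green the BMP arm, grey Smad4 and ochre Smad6. The pale green band of Smad9 is thin in all WT-CCL4 libraries and in KO-CCL4 replicate 75, where it takes 13.8% of the green part.

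Other genes that act on SMADs were counted in lists drawn up by role. Of 10 adaptors and receptor-level regulators, 1 was called between KO-CCL4 and WT-CCL4, beside 5.07% of all genes. This was Dab2, an endocytic adaptor of TGF-beta receptors (-1.63 ± 0.34, adjusted p = 0.0412, and -2.02 without replicate 75). It averaged 25.4 ± 10.6 CPM in KO-CCL4, 78.5 ± 28.1 CPM in WT-CCL4 and 16.4 ± 2.71 CPM in WT-NC (SD, n = 3 each). With CCl4 in WT, 6 of these 10 rose, led by Dab2 (2.26 ± 0.34), and 2 fell, beside 29.5% and 25.0% of all genes, led by Zfyve9 (-0.97 ± 0.22), the anchor that presents Smad2 and Smad3 to the receptor. Between KO-CCL4 and WT-NC 1 of the 10 was called, beside 23.0% of all genes. It was Ldlrad4, a membrane protein that keeps SMADs from the receptor, at -0.98 ± 0.28 (adjusted p = 0.0353, and 0.0685 without replicate 75). Of 13 nuclear co-repressors 6 rose with CCl4 in WT, beside the 29.5% of all genes that rose, with Ctbp2 at 2.54 ± 0.47 and the Ski relative Skil at 2.88 ± 0.55. In the same list 1 fell, Tob1 (-1.94 ± 0.33), beside 25.0% of all genes. None of the 13 was called in KO-CCL4 over WT-CCL4 with all libraries, beside 5.07% of all genes, against 1 higher and 3 lower without replicate 75, where 37.7% of all genes were called. The medians of these lists in KO-CCL4 over WT-CCL4 were -0.54 for the adaptors and -0.36 for the co-repressors, beside -0.03 for all genes tested.

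Of 17 further ubiquitin ligases and deubiquitinases, 2 rose with CCl4 in WT, with Wwp2 at 0.76 ± 0.19, and 2 fell, with Btrc at -0.61 ± 0.19, shares below the 29.5% and 25.0% of all genes. None of the 17 was called in KO-CCL4 over WT-CCL4, beside 5.07% of all genes (1 higher and 2 lower without replicate 75, at a background of 37.7%). Among 8 phosphatases and transport factors, Xpo1, the nuclear export receptor, averaged 58.2 ± 4.06 CPM in KO-CCL4, 85.0 ± 3.52 CPM in WT-CCL4 and 35.8 ± 1.59 CPM in WT-NC. It was called lower in KO-CCL4 than in WT-CCL4 (-0.55 ± 0.12, adjusted p = 0.0464, and -0.58 without replicate 75) and higher in WT-CCL4 than in WT-NC (1.25 ± 0.12, adjusted p = 0.000384). Ppm1a, a phosphatase that acts on Smad2 and Smad3, averaged 77.9 ± 19.2 CPM in KO-CCL4, 50.9 ± 0.67 CPM in WT-CCL4 and 149 ± 12.4 CPM in WT-NC. It fell with CCl4 in WT (-1.55 ± 0.19, adjusted p = 0.000736) and was lower in KO-CCL4 than in WT-NC (-0.94 ± 0.19, adjusted p = 0.0112, and -0.75 without replicate 75). In that list 2 of 8 rose and 3 of 8 fell with CCl4 in WT, near the 29.5% and 25.0% of all genes. KO-CCL4 over WT-NC gave 0.70 ± 0.12 for Xpo1 (adjusted p = 0.00695, and 0.67 without replicate 75). Of 6 co-activators tested, 1 fell and 1 rose in WT-CCL4 over WT-NC, beside 25.0% and 29.5% of all genes. Kat2b, an acetyltransferase, fell (-1.37 ± 0.15) and Kat2a, its relative, rose (0.58 ± 0.16). Kat2b was also lower in KO-CCL4 than in WT-NC (-0.96 ± 0.14, adjusted p = 0.00399, and -0.84 without replicate 75), the 1 called of these 6, where 8.98% of all genes were lower.

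Smad7, an inhibitory SMAD outside the set, averaged 16.6 ± 4.32 CPM in KO-CCL4, 12.1 ± 2.09 CPM in WT-CCL4 and 10.7 ± 2.95 CPM in WT-NC, and no comparison called it. Of 6 transcribed readouts of the TGF-beta SMAD arm, 4 rose with CCl4 in WT (median 1.96 on the log2 scale, beside 0.04 for all genes tested, of which 29.5% rose). Most of these 6, Skil and Ldlrad4 among them, also stood in the adaptor or co-repressor list. Their calls were partly counted there already, and the lists are not independent. In KO-CCL4 over WT-CCL4 the median of these 6 was -1.23, beside -0.03 for all genes tested. There 1 of the 6 was called lower, beside 1.61% of all genes. Without replicate 75, 4 were lower, where 2958 of 14469 genes were lower and 37.7% were called in either direction. Of 7 readouts of the BMP SMAD arm, 2 were higher in KO-CCL4 than in WT-CCL4, beside 3.46% of all genes: Hamp, which encodes hepcidin (2.14 ± 0.31, adjusted p = 0.0199, and 2.39 without replicate 75), and Atoh8, a transcription factor upstream of hepcidin (1.56 ± 0.31, adjusted p = 0.0389, and 1.71 without replicate 75). Without replicate 75, at a background of 37.7%, 2 were higher and 1, Bambi, a decoy receptor, was lower (-1.36, adjusted p = 0.0171). In WT, Hamp (-1.09 ± 0.30, adjusted p = 0.0143) and Atoh8 (-2.28 ± 0.32, adjusted p = 0.00106) fell with CCl4, while Id3, an inhibitor of helix-loop-helix factors, rose (1.96 ± 0.28, adjusted p = 0.00112) and was higher in KO-CCL4 than in WT-NC as well (2.20 ± 0.28, adjusted p = 0.0022, and 2.28 without replicate 75). Hamp, Atoh8 and Smad9 were thus each called lower in WT-CCL4 than in WT-NC and higher in KO-CCL4 than in WT-CCL4. Of the 7 readouts only these 2 did so. Bambi, which was also in the adaptor list, rose with CCl4 in WT (1.51 ± 0.47, adjusted p = 0.0236). Id1, Id2 and Id4 were called in neither comparison with all libraries. The share of all genes with this pattern was not counted. The WT-CCL4 libraries enter both comparisons, and Hamp was in addition higher in KO-CCL4 than in WT-NC (1.05 ± 0.30, adjusted p = 0.0362, and 1.303 without replicate 75).

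The genes most like the brakes over the 9 libraries were found with the same measure. Nearest to Ski were Tbc1d5, a retromer-bound regulator of Rab7, Papss1, which makes the sulfate donor PAPS, and Pot1a, a telomere-binding protein, at a root mean square of 0.10 each. Nearest to Smad6 were H2-Q4, a class Ib histocompatibility gene, Arhgap1, a GTPase-activating protein, and Atp6ap1, a subunit of the vacuolar proton pump, at 0.11, 0.11 and 0.12. Ski and Smad6 were each other's nearest gene within the set, at 0.23, although among 9933 candidate genes Ski ranked 106 by likeness to Smad6, and Smad6 ranked 221 by likeness to Ski. Nearest to Smurf2 were Rnf181 and Rnf10, which carry RING domains as many ubiquitin ligases do, and Chmp7, at 0.05, 0.06 and 0.07. A link of function was not tested. These distances are to be read beside each gene's own spread, 0.46 for Ski, 0.44 for Smad6 and 0.26 for Smurf2, against 1.16 for Smad9. H2-Q4 has close copies, so its separate value is uncertain.

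**Figure D4:**
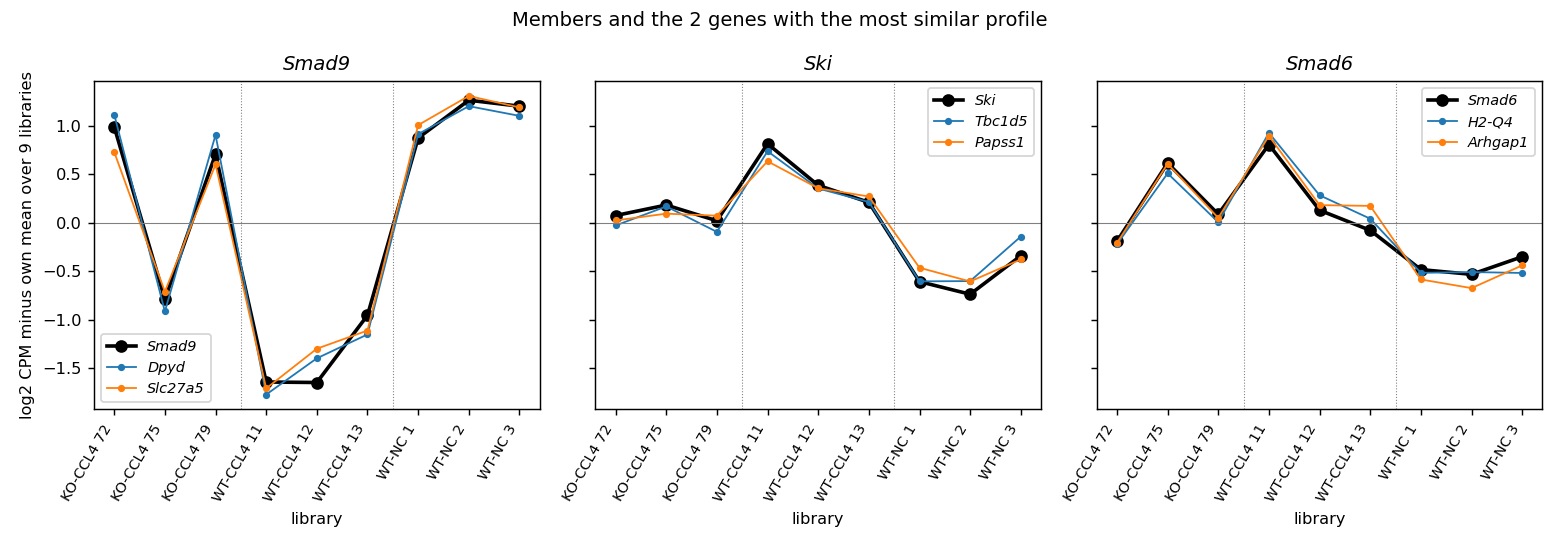
Log2 CPM minus each gene's own mean over the 9 libraries (vertical axis) for Smad9, Ski and Smad6 in black and their 2 nearest genes in colour, with KO-CCL4, WT-CCL4 and WT-NC from left to right, parted by dotted lines. Smad9 and its neighbours dip in WT-CCL4 and in KO-CCL4 replicate 75, and Ski and Smad6 peak in WT-CCL4 replicate 11.

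On the genome the set is spread over 8 chromosomes (mm10, positions as deposited). Smad3 (chromosome 9, 63646767 to 63757994) and Smad6 (63953076 to 64022059) are neighbours, 195081 bases apart with 0 genes of the table lying wholly between them. Every KO-CCL4 library was below both WT groups for Smad3 and above WT-NC for Smad6. For neither gene did edgeR call a difference of KO-CCL4 from a WT group, and whether their profiles differ was not tested. Smad9 lies on chromosome 3 (54755582 to 54801257), Ski on chromosome 4 (155154075 to 155222592), Smurf1 on chromosome 5 (144876495 to 144965847), Smad1 on chromosome 8 (79338395 to 79399518), Smurf2 on chromosome 11 (106820066 to 106920715) and Smad5 on chromosome 13 (56703010 to 56742377). Smad2 (76241580 to 76305731) and Smad4 (73639009 to 73703780) share chromosome 18.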

How the data were processed

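For 9 libraries the authors deposited raw counts and FPKM of each gene, per the file headers. The submitters' processing notes name HISAT2 2.0.4, StringTie 1.3.0 and the build mm10 (GRCm38.p4). How reads were counted (tool, strand, shared reads) the sources used here do not say, and overlapping and antisense genes may be mixed.

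Groups came from sample titles. Nothing in the labels ties each sample to its own animal; p-values therefore measure only sample-to-sample spread, which may be technical. Every pair within a group differed beyond counting noise (chi-square per degree of freedom 13.8 to 186), and all libraries were kept. Depth was 16447353 to 20373585 counts. Counts were tested with edgeR 4.0.16 in R 4.3.3: TMM, filterByExpr (14134 of 34745 genes), a quasi-likelihood fit of group means to all 9 libraries, and adjustment by Benjamini-Hochberg at 0.05. The standard error was the log2 fold change over the square root of F. Log2 CPM used a prior count of 2.

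Alternatives were DESeq2 1.42.0, its size factors, no count filter, no mitochondrial genes, only the 6 samples compared, each library left out, and limma 3.58.1 on log2(FPKM + 1) or log2(FPKM + 0.1) for genes at 1 FPKM in 3 libraries; on that scale changes of low genes are understated. The edgeR step was tested on simulated data. All 10 genes were named whatever their values. In each pathway list the called gene with the smallest p in each direction was named, plus Smad7. Bambi, Id1, Id2 and Id4, and the further comparisons of Hamp and Atoh8, lie outside that rule and were added after their values were seen. Profiles were compared over tested genes with a mean of at least 5 CPM, leaving out names of the Gm-number and Rik kind. The genes and lists were chosen with earlier results of these data known. Some genes that these rules name are not reported here.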

Additional observations from a re-analysis of the deposited data

How the results depend on the processing

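No paired analysis was possible because the groups share no replicate numbers. The count of the 10 genes called in KO-CCL4 over WT-CCL4 was 1, but 0 with only the 6 samples compared and with limma on either FPKM scale, and 0 to 2 without 1 library. In KO-CCL4 over WT-NC it was 1, but 2 with DESeq2, 0 with limma on either scale and 0 to 1 without 1 library. In WT-CCL4 over WT-NC it was 4, and 3 to 4 throughout. Over all genes, KO-CCL4 over WT-CCL4 gave 717 calls, but 30 with only the 6 samples compared, 2766 with DESeq2, 371 with limma on log2(FPKM + 0.1) and 5 to 5453 without 1 library (5453 without KO-CCL4 replicate 75, 760 without WT-CCL4 replicate 13 and 5 to 107 without any of the other 7). The split was 489 higher and 228 lower, against 306 higher and 395 lower with limma on log2(FPKM + 1), 2495 and 2958 without KO-CCL4 replicate 75, and 351 and 409 without WT-CCL4 replicate 13. With limma on log2(FPKM + 1) it was 3844 higher and 2054 lower in WT-CCL4 over WT-NC (4166 and 3527 by edgeR), and 696 and 1015 in KO-CCL4 over WT-NC (1978 and 1269 by edgeR). KO-CCL4 over WT-NC gave 3247, but 1711 with limma on log2(FPKM + 1) and 1264 to 3679 without 1 library (1264 to 1601 without a WT-NC library, 2045 without KO-CCL4 replicate 79). The causes were not tested.

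For single genes, 35 of 42 called values stayed past the threshold under the settings that kept all libraries, and 34 of 54 without 1 library. Signs turned only for values that were not called. On log2(FPKM + 1) and log2(FPKM + 0.1), Smad5 became -0.090 and -0.12 in KO-CCL4 over WT-CCL4. In WT-CCL4 over WT-NC, Smad3 became 0.22 and 0.28, Smad4 0.27 and 0.32, Smad5 0.081 and 0.11, and Smurf1 0.0082 and 0.015. The median over the 10987 genes of these fits was -0.19 and -0.24 in KO-CCL4 over WT-CCL4 and 0.21 and 0.27 in WT-CCL4 over WT-NC, against -0.03 and 0.04 over the 14134 genes of the count fit; unit, filter and model differ together. Leaving out 1 library turned Smad2 (-0.13 to 0.011) and Smad6 (-0.38 to 0.18) in KO-CCL4 over WT-CCL4. It turned Smad2 (-0.028 to 0.29), Smad3 (-0.21 to 0.082) and Smad4 (-0.14 to 0.073) in WT-CCL4 over WT-NC. It turned Smad1 (-0.054 to 0.30), Smad2 (-0.071 to 0.26) and Smad5 (-0.19 to 0.056) in KO-CCL4 over WT-NC. Shares of the SMAD pool on CPM, which ignores length, differed, with the BMP arm at 50.9% in KO-CCL4, 42.0% in WT-CCL4 and 50.4% in WT-NC. With 47 to 74 counts, Smad9 in WT-CCL4 was the shallowest measurement of the set.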
